A study of Mus musculus with 10 samples.

Results

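Homeobox and paired-box genes encode transcription factors that pattern the embryo, and 61 of them were followed here among the 22457 genes counted in RNA-seq of mouse tracheal epithelial organoids. They were matched by symbol, and the symbol patterns were chosen with earlier results of these data known. The patterns take in the Hox genes, the Hox partners Pbx and Meis, and the sine oculis-related genes (Six2 to Six6 among them). They also take in the Irx, Pax, Lhx, Dlx, Msx, Barx, Emx, Otx, Pitx and Nkx genes, without Nkx2-1. The same patterns match 106 mouse genes in RefSeq, and 45 of these have no row and so no value here. The organoids grew in Matrigel from tracheal basal cells, the stem cells of the airway lining, and were taken on day 14. Cells came from mice labelled Ctrl or M3-CKO, 3 libraries each, and the series title calls the deletion a knockout of Mettl3. The METTL3 protein is the methyltransferase of the complex that writes N6-methyladenosine (m6A) on mRNA. The driver of the deletion, its extent, the alleles of the Ctrl mice and the age of the animals are not stated in the labels. Both groups had the same media, which contained EGF, cholera toxin and all-trans retinoic acid. The growth medium also held the TGF-beta receptor inhibitor A83-01, the BMP receptor inhibitor DMH-1 and, at the start, the ROCK inhibitor Y-27632. The 4 m6A immunoprecipitation and input samples were not analysed here. No label ties a replicate to an animal or a culture, so p-values measure the spread between libraries, which may be technical.

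A homeodomain is a compact DNA-binding fold that reads AT-rich sites, and many of its genes are kept off by Polycomb complexes in tissues that do not use them. Hox genes lie in clusters, and their order in a cluster follows the body position where each is used. Pbx and Meis proteins (TALE homeodomain factors) bind DNA together with Hox proteins, and Pax proteins carry a paired domain, with or without a homeodomain. Retinoic acid is a known inducer of Hox genes near the start of the clusters.

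Library totals ran from 8906375 to 10485922 counts, and Mettl3 itself stood at 14.96 to 18.9 CPM (the count scaled by library size and TMM factor) in Ctrl and 9.87 to 11.1 CPM in M3-CKO (log2 fold change -0.70, SE 0.21, edgeR adjusted p = 0.12). The part of Mettl3 that was deleted is not known here, so its count does not measure intact transcript. M3-CKO replicate 3 stood apart: its Pearson r with M3-CKO replicates 1 and 2 across genes was 0.919 and 0.908, against 0.985 between those 2. It was the lowest or highest of the 6 libraries for 56.4% of the tested members and for 53.4% of all tested genes. Airway epithelial markers were present in every library: the 13 listed genes summed to between 6190 and 6842 CPM in Ctrl and between 5048 and 5684 CPM in M3-CKO. Low counts were mostly even: of values from 1 to 10, 71.0% were even, against 52.4% of values from 21 to 100. A count of 2 in 1 library may therefore be 1 read pair counted at both ends.

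The main question was how many of these genes are silent in Ctrl organoids and gain counts in M3-CKO. Of the 61 members 6 had 0 counts in all Ctrl libraries, and only Six6 of these had counts in every M3-CKO library. Over all rows 10.2% were silent in Ctrl, and 0.757% were silent in Ctrl with counts in every M3-CKO library. By the looser mark of fewer than 3 counts over a group, 12 members were near silent in Ctrl (20.3% of all rows) and 14 in M3-CKO (17.7%). The other 5 silent in Ctrl had between 2 and 6 counts in all: Emx1, Irx6 and Pax5 had 2 in M3-CKO replicate 3, Lhx2 had 2 in M3-CKO replicate 1, and Hoxd8 had 2 and 4 in M3-CKO replicates 1 and 2. Each of these except Hoxd8 may be a single read pair. The table holds no row with 0 counts in all 6 libraries, so a gene silent in Ctrl has some M3-CKO count by construction.

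The reverse pattern was as frequent among the members. Again 6 had 0 counts in all M3-CKO libraries, against 6.62% of all rows, and 0 of them had counts in every Ctrl library, against 0.352%. Dlx1, Hoxc6, Lhx9 and Pitx3 had 2 counts each, in 1 Ctrl library. Nkx2-6 had 18, 0 and 2 counts in Ctrl replicates 1 to 3, and Pax1 had 0, 1 and 18, so each rested mainly on 1 library. At a minimum of 3 counts over the group, 2 members were gained in M3-CKO (Six6 and Hoxd8; 3.95% of all rows) and 2 were lost (Nkx2-6 and Pax1; 2.07%). Silence taken as under 3 counts over the group gave Six6 and Msx1 as gained (1.66% of rows) and Hoxc5 and Pax2 as lost (1.02%). Leaving out Ctrl replicate 2 or M3-CKO replicate 3 raised the strict count of gained members from 1 to 2, by Msx1 and Hoxd8 respectively. The strict count of lost members went from 0 to 1 without Ctrl replicate 1 (Pax1) or 2 (Nkx2-6) and to 2 without M3-CKO replicate 2 (Hoxc5 and Pax2).

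**Figure D1:**
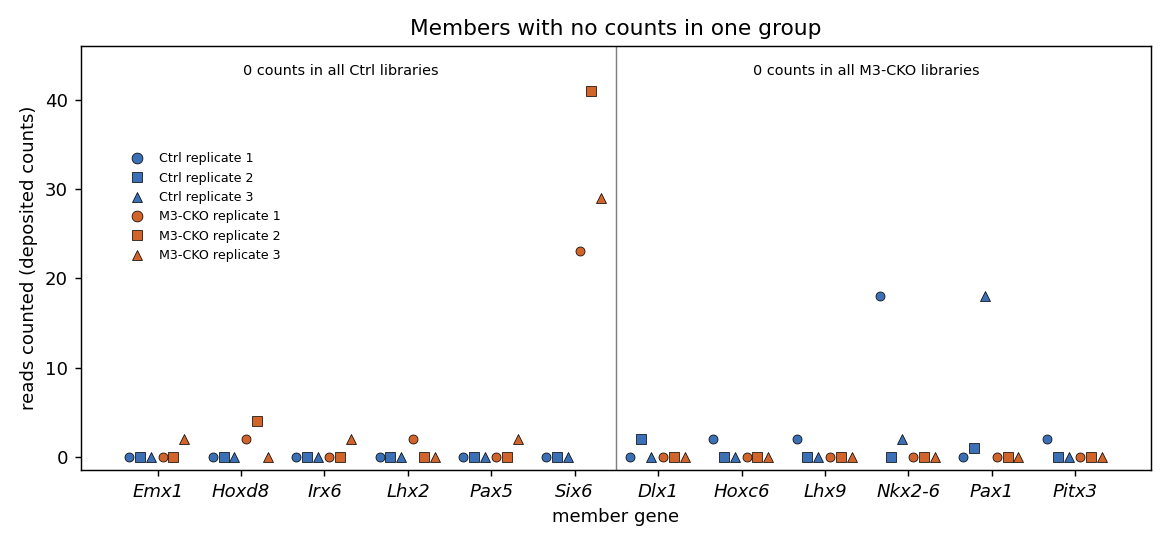
Deposited read counts (vertical axis, linear) of the 12 members with no count in one group, with one point per library (blue Ctrl, orange M3-CKO; the shape gives the replicate). Six6, at 23 to 41 counts in the M3-CKO libraries, is the only one of the 12 with counts in all 3 libraries of the other group.

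Six6, a homeodomain factor of the eye and hypothalamus, had 0 counts in each Ctrl library and 23, 41 and 29 in the M3-CKO libraries, replicates 1 to 3. These are 2.22, 4.68 and 2.95 CPM, so the 3 M3-CKO libraries lay together and apart from Ctrl, replicate 3 included. The M3-CKO mean of 3.28 ± 1.26 CPM (SD, n = 3) was at least 30.1-fold higher than Ctrl, taking 3 counts summed over Ctrl as the floor (edgeR adjusted p = 0.029). If read pairs were counted at both ends, a floor of 6 counts would make that bound 15.1-fold. Floors cover counting error only. The call was kept without M3-CKO replicate 3 (adjusted p = 0.0054) and lost without M3-CKO replicate 1 or 2 or without any 1 Ctrl library (adjusted p from 0.095 to 0.14).

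A gene next to Six6 also gained counts. This neighbour, 4930447C04Rik, also called Six6os1, encodes a meiotic chromosome protein. It had 0, 2 and 0 counts in Ctrl and 26, 47 and 84 counts in M3-CKO (log2 fold change 5.9999, SE 0.95, edgeR adjusted p = 0.029), with no overlap between the groups. It was picked as a RefSeq neighbour after values were seen. In RefSeq (GRCm38.p6) the spans of these genes do not overlap, but the annotation and strand setting behind the counts are not given, so reads of one could have been counted for the other. Ppm1a, a phosphatase gene on the far side of 4930447C04Rik, had a log2 fold change of 0.27 (SE 0.16, edgeR adjusted p = 0.39). Six4, on the other side of Six6, overlapped between the groups (98.8 ± 20.9 and 115.7 ± 34.2 CPM, log2 fold change 0.23, SE 0.26). The gain was thus called for Six6 and 4930447C04Rik, and for neither Ppm1a nor Six4.

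**Figure D2:**
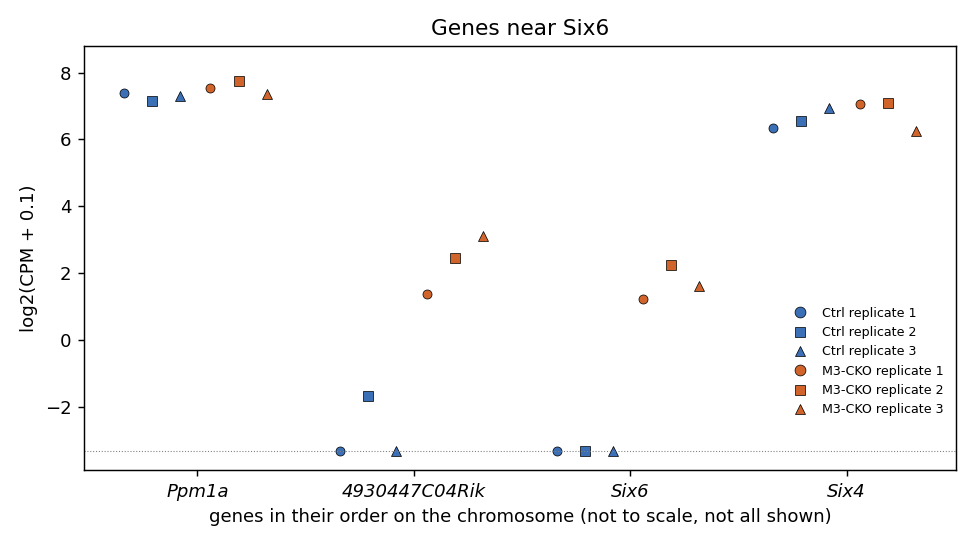
Level of Six6 and genes near it (not all are shown), in RefSeq order, as log2(CPM + 0.1), one point per library; the dotted line marks 0 counts. The M3-CKO points of Six6 and 4930447C04Rik stand far above the Ctrl points, while the groups lie within about a log2 unit of each other for Ppm1a and Six4.

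The window before the start of Six6 is printed because this is the member that goes from no count to a count. It is the 250 bases before the RefSeq start, 5′ to 3′, at chr12:72939632-72939881 (plus strand, GRCm38.p6). Capitals mark TGACAG, the core read by Meis factors, on either strand.
Six6: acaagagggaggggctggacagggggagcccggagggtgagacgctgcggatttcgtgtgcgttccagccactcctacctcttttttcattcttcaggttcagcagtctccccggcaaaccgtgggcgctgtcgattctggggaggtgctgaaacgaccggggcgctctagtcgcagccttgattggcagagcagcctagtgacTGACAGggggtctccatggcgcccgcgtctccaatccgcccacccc
This motif is found once here, and 15.9% of 32851 mouse windows of that length hold it. The other searches, TAAT (the homeodomain core) and TGATNNAT (a Hox-Pbx site), on both strands, gave 0 matches in this window. A match in letters does not show binding.

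The relatives of Six6 were expressed in both groups, and none of those named here was called. Six2, which keeps kidney progenitors, averaged 116.6 ± 7.71 CPM (SD, n = 3, as below) in Ctrl, against 103.1 ± 12.7 in M3-CKO (log2 fold change -0.18, SE 0.15). Six5, a widely expressed relative, stood at 38.6 ± 9.71 and 44.7 ± 10.53 CPM (0.21, SE 0.25). Six3, the closest relative of Six6, had 31, 28 and 23 counts in Ctrl and 10, 28 and 72 in M3-CKO, so the groups overlapped and the M3-CKO libraries differed among themselves (log2 fold change 0.36, SE 0.65, or -0.54 without M3-CKO replicate 3).

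Over the whole family set, 39 of 61 members had enough counts to be tested by edgeR, and 5 were called: Six6 higher, and Meis1, Pbx3, Barx2 and Hoxc5 lower in M3-CKO. That is 1 higher, where 1.74% of 13528 tested genes were called higher, and 4 lower, where 1.16% were called lower (2.91% in either direction). The 22 members left out had between 2 and 39 counts over the 6 libraries. The median log2 fold change was -0.16 over the 39 and 0.02 over all tested genes. Groups did not overlap for 15 members, 5 higher (13.7% of tested genes) and 10 lower (13.5%; 27.1% in either direction). Without M3-CKO replicate 3 edgeR called 4 members higher and 9 lower, where 13.7% and 11.3% of tested genes were called (25.0% in all); that fit rests on the 2 M3-CKO libraries most alike. Without any 1 of the other 5 libraries 0 members were called, and calls were few over all genes too: 0, 1 and 0 without Ctrl replicates 1, 2 and 3, then 11 higher and 3 lower without M3-CKO replicate 1, and 15 higher and 3 lower without M3-CKO replicate 2. In those 5 fits 10 to 12 members, and 1867 to 2378 of all genes, had an unadjusted p under 0.05. DESeq2 called 2 higher and 7 lower, where it called 6.05% and 4.31% of tested genes (10.4% in all). limma-voom called 1 higher and 4 lower, where it called 1.2% and 1.03% (2.23% in all).

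**Figure D3:**
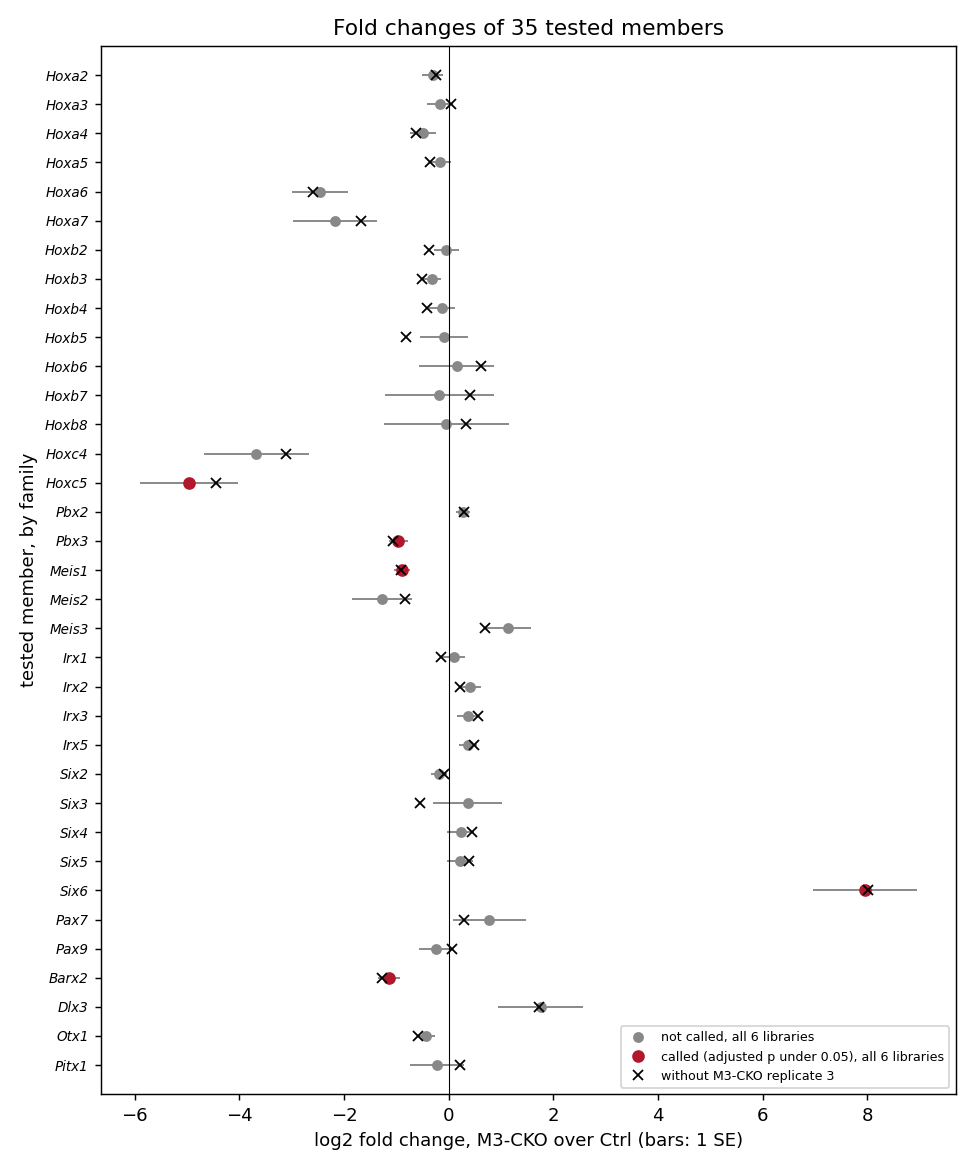
Log2 fold change of M3-CKO over Ctrl for 35 tested members from edgeR (dots, bars of 1 SE; red where the adjusted p is under 0.05) and without M3-CKO replicate 3 (crosses). Meis1, Pbx3, Barx2 and Hoxc5 are red on the left and Six6 on the right; the position of Six6 depends on the prior count, because its Ctrl libraries are all at 0.

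Of the Hox partners, Meis1 and Pbx3 fell. Meis1, which binds beside Hox and Pbx proteins, stood at 43.2, 41.7 and 41.1 CPM in Ctrl and 20.8, 23.96 and 23.1 CPM in M3-CKO. Its M3-CKO level averaged 53.8% of Ctrl, or 22.6 ± 1.66 against 42.0 ± 1.11 CPM, a gap larger than the spread in either group (log2 fold change -0.89, SE 0.16, edgeR adjusted p = 0.037). Pbx3 measured 52.4, 41.3 and 50.5 CPM in the Ctrl libraries, against 23.5, 22.6 and 27.97 in the M3-CKO libraries, at 51.3% of the Ctrl mean (-0.96, SE 0.18, adjusted p = 0.038). All 3 M3-CKO libraries, replicate 3 included, were below all Ctrl libraries for both genes. Both calls were lost without any 1 library other than M3-CKO replicate 3 (adjusted p from 0.11 to 0.17 for Meis1 and from 0.13 to 0.18 for Pbx3), with log2 fold changes from -0.83 to -1.07 throughout. In bulk RNA, fewer cells that express a gene and less RNA per cell cannot be told apart.

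No other partner passed the test. Pbx2 was higher in each M3-CKO library (67.9, 60.02 and 61.4 CPM) than in any Ctrl library (51.3, 50.7 and 54.2), a small gap that was not called (log2 fold change 0.28, SE 0.14, edgeR adjusted p = 0.32). Meis2 overlapped between groups and varied widely, from 46.8 to 107.7 CPM in Ctrl and from 8.54 to 49.5 in M3-CKO (-1.28, SE 0.58, adjusted p = 0.27). Meis3 had 19, 24 and 18 counts in Ctrl and 29, 39 and 72 in M3-CKO (1.13, SE 0.44, adjusted p = 0.20). Pbx4, with 34 counts in all, was not tested.

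**Figure D4:**
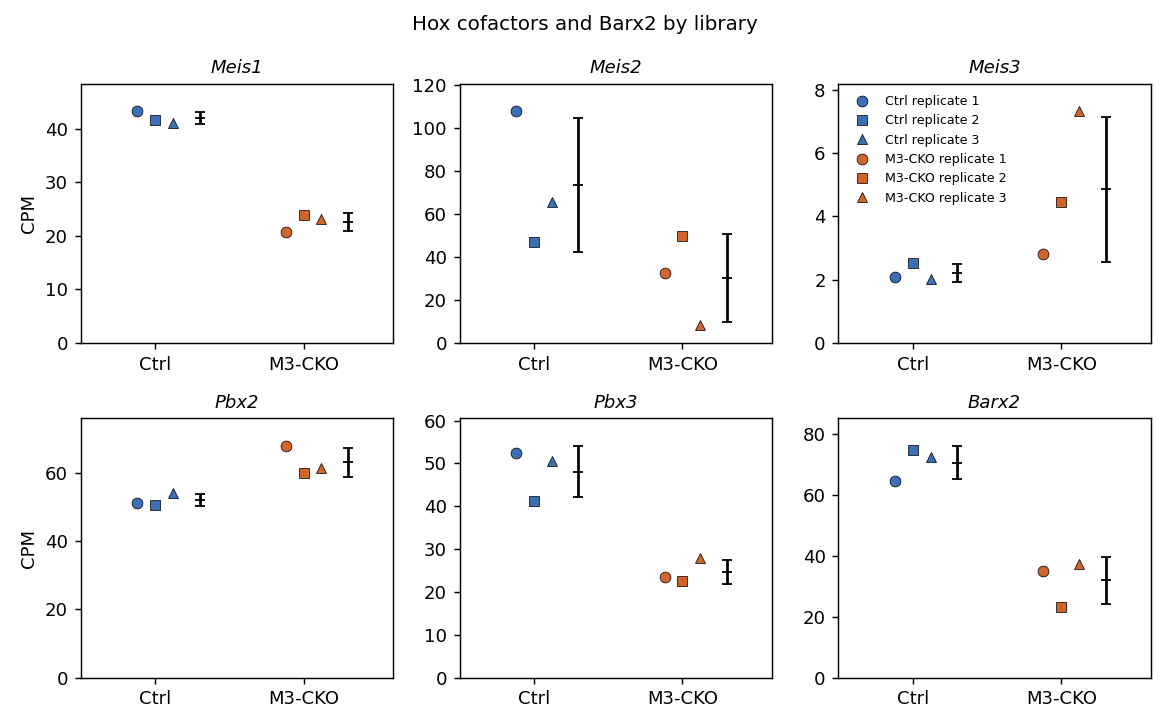
CPM (linear axis) of Meis1 to Meis3, Pbx2, Pbx3 and Barx2 in each library, with the mean and SD of each group as a bar beside the points. Meis1, Pbx3 and Barx2 show a gap between the groups, while Meis2 overlaps.

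Among the Hox genes, Hoxc5 was the only one called. It had 34, 16 and 21 counts in Ctrl and 0, 2 and 0 in M3-CKO, so its M3-CKO signal may be 1 read pair. The summed level in M3-CKO was 2.68% of that in Ctrl (exact 95% interval 0.318% to 10.04%, for counting error only; 0.0651% to 15.7% with all counts halved). The edgeR adjusted p was 0.039, and it was 0.092 to 0.17 without any 1 library other than M3-CKO replicate 3 (0.012 without that one). Its neighbour Hoxc4 had 68, 25 and 49 counts in Ctrl and 1, 10 and 0 in M3-CKO, with no overlap (log2 fold change -3.68, SE 1.01, adjusted p = 0.094). Hoxc4 was called by DESeq2 (adjusted p = 0.0051), without a low-count filter (0.034) and without M3-CKO replicate 3 (0.026). Hoxc6 had 2 counts in all, and the remaining genes of cluster c have no row. Both Hoxc4 and Hoxc5 thus had fewer counts in every M3-CKO library than in any Ctrl library.

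The genes at the end of the expressed stretch of cluster a had a like pattern at low counts. Hoxa6 had 14, 19 and 21 counts in Ctrl and 2, 4 and 4 in M3-CKO (log2 fold change -2.45, SE 0.54, edgeR adjusted p = 0.057; 0.021 by DESeq2 and 0.025 without M3-CKO replicate 3). Hoxa7 had 30, 34 and 13 counts in Ctrl and 14, 3 and 1 in M3-CKO (-2.17, SE 0.80, adjusted p = 0.18), and its groups were separated only by the scaling to CPM, since 13 counts in Ctrl replicate 3 and 14 in M3-CKO replicate 1 are 1.46 and 1.35 CPM. Hoxa2 to Hoxa5 overlapped between the groups and were not called. Hoxa2, a hindbrain gene, stood at 30.6 ± 5.87 and 24.8 ± 2.86 CPM, Hoxa3 at 54.5 ± 9.47 and 48.5 ± 13.7, and Hoxa4 at 25.3 ± 5.81 and 18.01 ± 3.33. For Hoxa4 the log2 fold change was -0.49 (SE 0.24, edgeR adjusted p = 0.31; -0.63 and 0.077 without M3-CKO replicate 3), and the groups overlapped only by the lowest Ctrl library, at 21.25 CPM, and the highest M3-CKO library, at 21.26 CPM. Hoxa5, which is needed for lung and tracheal development, stood at 30.9 ± 2.71 and 27.7 ± 5.96 CPM (-0.16, SE 0.21, adjusted p = 0.73).

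Of the 16 tested Hox genes 14 had a negative and 2 a positive log2 fold change, where 7019 of all 13528 tested genes had a positive one. This split moved with the libraries: 5 were positive without Ctrl replicate 2 or M3-CKO replicate 3, 4 without M3-CKO replicate 1 or 2, 3 without Ctrl replicate 3 and 1 without Ctrl replicate 1. By edgeR 0 Hox genes were called higher and 1 lower, against 1.74% and 1.16% of all tested genes.

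In cluster b the genes of like number overlapped between the groups. Hoxb6 had 11, 39 and 22 counts in Ctrl and 31, 44 and 7 in M3-CKO (log2 fold change 0.15, SE 0.72). Hoxb7 had 4, 18 and 19 against 21, 17 and 0, and Hoxb8 had 0, 29 and 2 against 15, 12 and 4. The groups overlapped for each, and the SE of the log2 fold change was 1.03 for Hoxb7 and 1.19 for Hoxb8. Whether clusters a, b and c differ in response was not tested. Hoxb2 and Hoxb3 lay near each other between groups, at 49.95 ± 1.42 against 48.4 ± 16.9 CPM and 126.4 ± 9.17 against 100.8 ± 21.04 CPM. Hoxb4 stood at 76.7 ± 13.7 and 70.3 ± 22.2 CPM, and Hoxb5 at 10.6 ± 2.27 and 10.03 ± 6.83. In these 4 genes M3-CKO replicate 3 was above both other M3-CKO libraries, and without it Hoxb3 was called lower (-0.52, adjusted p = 0.015).

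Spans of Hox genes overlap in RefSeq: Hoxa3 with Hoxa4, Hoxa5 and Hoxa6, and Hoxb3 with Hoxb4. How reads in shared stretches were assigned is not given, so the split of counts within each of these sets is uncertain. Of 19 listed antisense and other non-coding RNAs of Hox clusters, 7 have a row, 3 were tested and 0 were called. Among those tested, 0 had an unadjusted p under 0.05 by edgeR. Mira, a non-coding gene between Hoxa6 and Hoxa7, is not on that list. It had fewer counts in M3-CKO and was not called (edgeR adjusted p = 0.062), as described under Other observations.

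**Figure D5:**
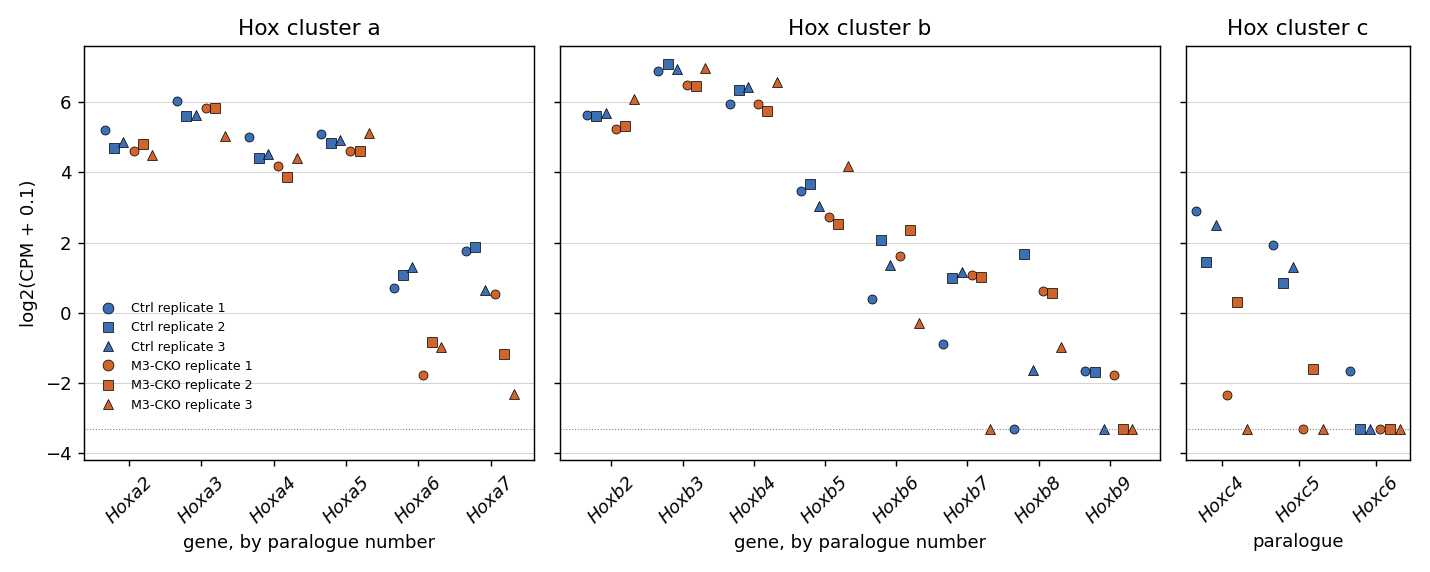
Level of Hox genes of clusters a, b and c from Hoxa2, Hoxb2 and Hoxc4 on, as log2(CPM + 0.1), in order of paralogue number and with one point per library; the dotted line marks 0 counts. Orange M3-CKO points lie below the blue Ctrl points for Hoxa6, Hoxa7, Hoxc4 and Hoxc5, and mix with them for Hoxb6, Hoxb7 and Hoxb8.

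Windows of 250 bases before the RefSeq start are printed for Hoxc4 and Hoxa6, the tested members with a window that stand lowest against Ctrl; Hoxc5 has none in the table. They lie at chr15:103034145-103034394 (plus strand) and chr6:52208673-52208922 (minus strand), GRCm38.p6, and read 5′ to 3′ along the gene. Capitals mark TAAT on either strand.
Hoxc4: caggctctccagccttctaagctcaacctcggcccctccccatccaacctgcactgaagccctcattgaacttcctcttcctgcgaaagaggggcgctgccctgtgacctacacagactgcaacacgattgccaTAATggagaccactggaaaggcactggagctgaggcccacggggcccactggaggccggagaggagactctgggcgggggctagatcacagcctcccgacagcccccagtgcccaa
Hoxa6: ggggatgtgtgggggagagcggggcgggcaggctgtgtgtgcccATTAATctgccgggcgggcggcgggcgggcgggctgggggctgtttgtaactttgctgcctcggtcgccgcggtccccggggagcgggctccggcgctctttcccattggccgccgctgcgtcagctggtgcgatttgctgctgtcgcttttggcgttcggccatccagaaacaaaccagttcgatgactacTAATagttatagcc
TAAT occurs once before Hoxc4 and 3 times before Hoxa6, where 2 matches overlap. It is found in 54.9% of all windows and in 22 of 42 windows of members (52.4%), so it does not set these genes apart. Neither window holds TGACAG or TGATNNAT.

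Barx2, a homeodomain factor of epithelia and muscle, fell. It stood at 64.5, 74.7 and 72.4 CPM in Ctrl and 35.1, 23.2 and 37.3 CPM in M3-CKO, at 45.2% of the Ctrl mean. All M3-CKO libraries were below all Ctrl libraries (log2 fold change -1.15, SE 0.21, edgeR adjusted p = 0.037). The adjusted p was 0.0032 without M3-CKO replicate 3 and 0.098 to 0.17 without any other 1 library.

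The Iroquois genes, TALE factors with roles in early patterning of the lung, were expressed in both groups and none was called. Irx1 averaged 70.2 ± 9.23 CPM in Ctrl, against 74.9 ± 20.2 in M3-CKO, and Irx2 at 187.7 ± 29.6 and 250.2 ± 55.8. Irx3 stood at 73.5 ± 5.82 and 95.2 ± 24.1 CPM, and Irx5 at 92.05 ± 9.87 and 118.2 ± 18.7. The log2 fold changes of these 4 ran from 0.09 to 0.42, with edgeR adjusted p from 0.29 to 0.86. Without M3-CKO replicate 3, Irx3 (0.57, adjusted p = 0.012) and Irx5 (0.48, adjusted p = 0.025) were called higher, and Irx1 changed sign (-0.14). Irx4 and Irx6 had 12 and 2 counts in all.

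Among the paired-box genes only Pax9 and Pax7 could be tested. Pax9, a factor of foregut and oral epithelium, measured 257.9, 231.6 and 257.2 CPM in the Ctrl libraries, against 269.1, 255.4 and 104.8 in the M3-CKO libraries, so replicates 1 and 2 lay at the Ctrl level and replicate 3 well below it (log2 fold change -0.25, SE 0.33, edgeR adjusted p = 0.73; 0.071 without replicate 3). Pax7, a muscle stem cell factor, had 3 to 14 counts in Ctrl and 5 to 23 in M3-CKO (0.78, SE 0.71). Pax2, of kidney and ear, had 16, 7 and 1 counts in Ctrl and 0, 1 and 0 in M3-CKO, and was not tested. Pax8 had 33 counts in all, Pax6 had 8 and Pax5 had 2.

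The paired-like factors and Dlx3 were not called either. Otx1 measured 173.8, 168.0 and 192.6 CPM in the Ctrl libraries, against 117.8, 121.9 and 157.95 in the M3-CKO libraries, with no overlap (log2 fold change -0.43, SE 0.17, edgeR adjusted p = 0.20; -0.58 and 0.0099 without M3-CKO replicate 3). Pitx1 measured 52.3, 31.6 and 42.0 CPM in the Ctrl libraries, against 47.8, 49.8 and 10.3 in the M3-CKO libraries, another gene for which only replicate 3 left the Ctrl range downward (-0.22, SE 0.52). Dlx3, a factor of differentiating epidermis, had 7, 4 and 0 counts in Ctrl and 15, 11 and 14 in M3-CKO. Its groups did not overlap, but the log2 fold change of 1.76 (SE 0.81) was not called (adjusted p = 0.28). The other Dlx, Msx, Lhx, Emx and Nkx members with a row had 2 to 39 counts in all.

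Regulators of these loci were read from lists of related genes. Of 30 Polycomb genes, which keep developmental genes off, 30 were tested and 0 called by edgeR; the median log2 fold change was 0.02, and 5 genes had an unadjusted p under 0.05, as had 2774 of all 13528 tested genes. Of 14 Trithorax and COMPASS genes, which keep them on, all were tested and 0 called; the median was -0.19, and 1 gene had an unadjusted p under 0.05. Among 26 tested homeobox genes outside the families above, 3 fell and 0 rose, against 1.16% and 1.74% of all tested genes. These were Hopx, a homeodomain protein that does not bind DNA (111.6 ± 22.7 to 56.6 ± 3.29 CPM, adjusted p = 0.037), Zhx3 (20.2 ± 1.41 to 8.19 ± 1.67, adjusted p = 0.037) and Zhx1 (117.9 ± 10.6 to 73.6 ± 2.08, adjusted p = 0.048). ZHX proteins combine zinc fingers and homeodomains.

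Markers of other cell types were read beside these values. Mesenchymal markers with a row, 9 of 13, summed to 5.57 to 13.5 CPM in Ctrl and 3.19 to 4.27 in M3-CKO. Most of the Ctrl sum came from 1 gene, the only one of this list that was tested, and edgeR did not call it. Col1a1 had 0 counts in Ctrl and 1, 2 and 1 in M3-CKO. Neuronal markers, 7 of 10, summed to 28.9 to 63.96 CPM in Ctrl and 15.7 to 24.2 in M3-CKO. Nearly all of this was Map2, while Tubb3, Elavl4 and Stmn2 had 0 counts in Ctrl and at most 4 in any M3-CKO library. Neuroendocrine markers, 6 of 7, summed to 1.37 to 2.13 CPM in Ctrl and 0.228 to 0.407 in M3-CKO. Endothelial markers, 2 of 6, summed to at most 0.317 CPM in any library. Cartilage markers, 5 of 6, summed to 11.5 to 19.0 CPM in Ctrl and 11.7 to 77.2 in M3-CKO, nearly all from Sox9, which airway epithelium can also express. Immune markers, 5 of 7, summed to 535.8 to 1434 and 457.0 to 792.8 CPM, mostly Lyz2, and Ptprc had 2 counts over the 6 libraries. Squamous markers, 8 of 8, summed to 528.1 to 658.0 CPM in Ctrl and 165.9 to 237.6 in M3-CKO, with Krt4 called lower (adjusted p = 0.027) and Lor higher (0.029). Krt15 and Krt5 of the airway epithelial list were called lower (adjusted p = 0.0083 and 0.024). The part of these cell types in the levels of Meis1, Pbx3, Barx2, Hoxc5 and Six6 was not tested.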

How the data were processed

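Poly(A) RNA libraries of 3 Ctrl and 3 M3-CKO organoid samples were sequenced as 150-base pairs. The authors deposited whole-number read counts per gene symbol, not normalized. The submitters' processing notes name mm39 as the build, with HISAT2, Trim Galore and featureCounts as tools. The annotation, strand setting, tool versions and handling of multiply mapped reads: not given in the sources used here. The table has no coordinates.

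edgeR 4.0.16 in R 4.3.3 was fitted on the whole table (filterByExpr, 13528 genes kept; TMM; quasi-likelihood test, two-sided; Benjamini-Hochberg adjustment over all tested genes, called under 0.05). Every adjusted p is from this test unless DESeq2 1.42.0 or limma 3.58.1 (voom) is named. CPM uses TMM-scaled library sizes; SE is the log2 fold change over the square root of F. The steps were tested on simulated data.

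Members and lists were chosen with earlier results of these data known. Named with values were called members, those at 0 in one group and present in every library of the other, those with a mean of at least 5 CPM, up to 15 whose groups did not overlap, and Mettl3; others are named to account for low counts. Some members and marker genes are counted in the totals but not reported here by name. Sequences are from RefSeq (GRCm38.p6), whose promoter table matched 37 of 61 members. Gene order and spans come from RefSeq of the same assembly, which differs from mm39.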

Additional observations from a re-analysis of the deposited data

How the results depend on the processing

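The counts of 1 member called higher and 4 lower were 1 and 4 with DESeq2 size factors, library size alone, limma-voom or a minimum of 1 CPM in 3 libraries. They were 2 and 7 with the DESeq2 test, 2 and 5 with no low-count filter, and 0 and 0 with the replicate number as a block (replicate block, where 13 members had an unadjusted p under 0.05 and 20 of all 13528 genes were called). Leaving out each library in turn gave 0 to 4 higher and 0 to 9 lower. No label says whether the replicate numbers pair samples, so the main fit has no block. Deviations of same-numbered libraries correlated at r = -0.03, 0.02 and -0.10. The count of 1 member silent in Ctrl and present in every M3-CKO library became 2 with silence under 3 counts, 6 with a count in any library and 2 with 3 counts over the group, and 1 to 2 without each library in turn. The reverse count of 0 became 2, 6 and 2 under the same settings, and 0 to 2 without each library. Non-overlapping members, 5 higher and 10 lower, ranged from 5 to 10 and from 10 to 15 without each library. Among members that were not called, the log2 fold change turned sign when a library was left out for 7 of those named by the rule, with ranges over the 6 fits of -0.29 to 0.046 for Hoxa3, -0.14 to 0.26 for Irx1, -0.47 to 0.071 for Pax9 and -0.51 to 0.21 for Pitx1, all 4 turned by leaving out M3-CKO replicate 3. The ranges were -0.37 to 0.11 for Hoxb2, -0.41 to 0.042 for Hoxb4 and -0.81 to 0.20 for Hoxb5, turned by other libraries. It also turned for Six3 (-0.54) without M3-CKO replicate 3, for Hoxb6 (-0.18 and -0.47) without Ctrl replicate 1 or M3-CKO replicate 2, for Hoxb7 (0.036, 0.16 and 0.41) without Ctrl replicate 2 or 3 or M3-CKO replicate 3, and for Hoxb8 (3.12 and 0.34) without Ctrl replicate 2 or M3-CKO replicate 3. The cause was not tested. Depth limits the members with under 40 counts in all, which were not tested.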

Other observations

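Some non-coding neighbours of members, picked after values were seen, had fewer counts in M3-CKO; none of those tested was called by edgeR with all 6 libraries. Mira, a non-coding gene between Hoxa6 and Hoxa7, had 50, 32 and 17 counts in Ctrl and 2, 2 and 8 in M3-CKO (log2 fold change -3.08, SE 0.69, edgeR adjusted p = 0.062; 0.0070 without M3-CKO replicate 3). 8430419K02Rik, the neighbour of Meis1, had 28, 23 and 29 counts in Ctrl and 4, 6 and 0 in M3-CKO (-3.01, SE 0.78, adjusted p = 0.085). Gm30528, whose span overlaps that of Hoxc4, had 8, 4 and 4 counts in Ctrl and 0 in each M3-CKO library, and was not tested. For each of these 3 the groups were apart. Gm31408, a neighbour of Barx2, had 6, 4 and 10 counts in Ctrl and 0, 0 and 2 in M3-CKO. Its groups were also apart, and it was not tested. Gm16141, whose span overlaps that of Meis1, had 12, 9 and 20 counts in Ctrl and 12, 2 and 0 in M3-CKO. Its groups overlapped (log2 fold change -1.64, SE 0.96, edgeR adjusted p = 0.39). Some other non-coding neighbours did not share this pattern. C230014O12Rik by Pbx3 was not called (log2 fold change -0.49, SE 0.31, edgeR adjusted p = 0.42). Gm13404 by Pbx3 had 2 counts in Ctrl replicate 2 against 4 and 2 in M3-CKO replicates 2 and 3. Gm31497 by Barx2 had 2 counts, in M3-CKO replicate 1. Of the protein-coding neighbours that are no members, Calcoco1 near Hoxc5 had a log2 fold change of 0.15 (SE 0.15), Mapkap1 near Pbx3 -0.35 (SE 0.17) and Arhgap32 near Barx2 -0.57 (SE 0.27).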
